A study of Zea mays with 48 samples.

Results

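In maize seedlings chilled for 24 h, 96 of 44146 nuclear gene models were at least 2-fold lower in the leaf whenever the leaf was itself cold and in the root whenever the root was. They were chosen from deposited CPM, which are read counts multiplied by 1 constant per library, as genes whose log2 ratio of (mean chilled CPM + 1) to (mean control CPM + 1) was -1 or lower in 4 comparisons. These were the leaf under whole-plant chilling, the leaf under shoot-only chilling, the root under whole-plant chilling and the root under root-only chilling. A gene not listed in a tissue's table was set to 0 there, and 23290 of the gene models were listed in at least 1 table. The falls that chose the 96 genes are therefore described without a test. Tests are given for the crown, whose libraries played no part in the choice.

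The seedlings belonged to inbred line B73 and had 3 leaves, and RNA came from leaf, top crown, bottom crown and root, with 3 biological repeats in each of 16 groups. Control plants had shoot and root at 26 °C. Whole-plant chilling held both at 4 °C, shoot-only chilling combined a shoot at 4 °C with a root at 26 °C, and root-only chilling combined a root at 0 °C with a shoot at 26 °C. The chilled root was thus at 4 °C in one treatment and at 0 °C in the other. All groups shared the same line and stage, and no group carried another treatment. The labels do not say whether a library is 1 plant or a pool, whether equal replicate numbers mark the same plants, or which temperature either crown part reached under local chilling. The p-values below set differences between groups against the spread between these libraries. How far they extend to single plants depends on what a library is, which is not stated.

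Maize is of tropical origin and is sensitive to chilling, which slows growth, photosynthesis and water uptake. The leaf is the main site of photosynthesis, the root takes up water and minerals, and the crown is the short region where shoot and root join and where, in a young plant, the growing point sits. Cold sensed in one organ can be answered by transcript changes in another, because the organs are joined by the vascular system and exchange hormones, sugars and water. Local chilling separates the response of a cold organ from that of a warm organ on a cold plant.

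The 96 genes cannot be sorted by function here. The files do not pair the identifiers with names, and the name table matched 0 of the 96, so no role is given to any of them. Members are called by their identifiers, and only a few of them are named. The libraries were made with a kit that reads the 3′ ends of polyadenylated transcripts, so the CPM of different genes can be set side by side without a correction for length. In tissue RNA, fewer cells of a type and less RNA per cell cannot be told apart. The labelled tissues could be checked only by plastid-encoded transcripts, which made up 0.00768% to 0.0538% of counts in leaf libraries and 0.000252% to 0.00129% in root libraries.

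Total counts ran from 3449880 to 8633854 per library, and no pair of replicates was alike enough to be 1 library deposited again, with the lowest chi-square/df of a pair at 4.01. Some libraries stood apart from the others of their group. Replicate 1 of the root under whole-plant chilling differed from the other replicates with a chi-square/df of 39.3 and 33.0, against 14.4 between the other pair. Replicate 1 of the bottom crown under whole-plant chilling did so with 19.8 and 23.0, against 8.37. Replicate 2 of the bottom crown under shoot-only chilling did so with 14.2 and 12, against 4.69, and its plastid-encoded share of 0.00422% stood beside 0.000691% and 0.000965% in the other replicates. Without the root library the rule found 96 genes, 92 of them in common with the 96 described. In leaf control, 5 members had at least 10 CPM in 1 library and at least 5 times the level of either other library, and in all 5 that library was replicate 3. Root control and both crown controls held 0 such members. Without leaf control replicate 3 the rule found 91 genes, 86 of them shared. Over the 18 libraries that the rule used, 36 of the 96 met the rule whichever library was left out.

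The falls that chose the members were mostly moderate. The median log2 ratio over the 96 was -1.54 in the leaf under whole-plant chilling, with a range from -4.06 to -1.01. It was -1.52 in the leaf under shoot-only chilling, with a range from -5.00 to -1.02. In the root it was -1.98 under whole-plant chilling, from -5.92 to -1.01, and -1.30 under root-only chilling, from -5.74 to -1.001. Over all 23290 listed genes the share at least 2-fold lower in these 4 comparisons was 5.31%, 5.21%, 9.12% and 3.71%, in the same order. Of all listed genes, 311 passed the first 3 of these comparisons and 96 passed all 4. The members nearest to the threshold inside it were Zm00001d038638 and Zm00001d035920, with -1.008 and -1.001 in their weakest comparison. The nearest genes outside were Zm00001d011846, which reached -0.999 in its weakest comparison, and Zm00001d025310, which reached -0.993.

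Leaf values lay close together under both treatments that chilled the shoot. The log2 ratio under whole-plant chilling and that under shoot-only chilling differed by a median of 0.154 per member, in 0 of 96 by as much as 1, and the former was the lower in 44 of 96. Of the 15550 listed genes with at least 1 CPM in control leaves, 46.8% were lower under whole-plant than under shoot-only chilling. Their median difference was 0.16, and 0.334% differed by at least 1, so this closeness was shared by all genes. In the root, whole-plant chilling gave the lower value in 80 of 96 members, with a median difference of 0.532, and 20 members differed by at least 1. Of the 18728 listed genes with at least 1 CPM in control roots, 55.4% were lower under whole-plant than under root-only chilling. Their median difference was 0.373, and 11.5% differed by at least 1. The root was at 4 °C in the first case and at 0 °C in the second, so depth of cold and the state of the shoot differed together and cannot be told apart. Each pair of these comparisons shares its control libraries. The rule also used all 4 of them, so every member had to reach -1 in each. In the root, 2124 listed genes passed that cut with the whole plant cold and 865 with the root alone cold. How far the cut itself shaped the 80 of 96 was not tested. The genes behind the 55.4% were not chosen by the rule, so that share is not a matched background.

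**Figure D1:**
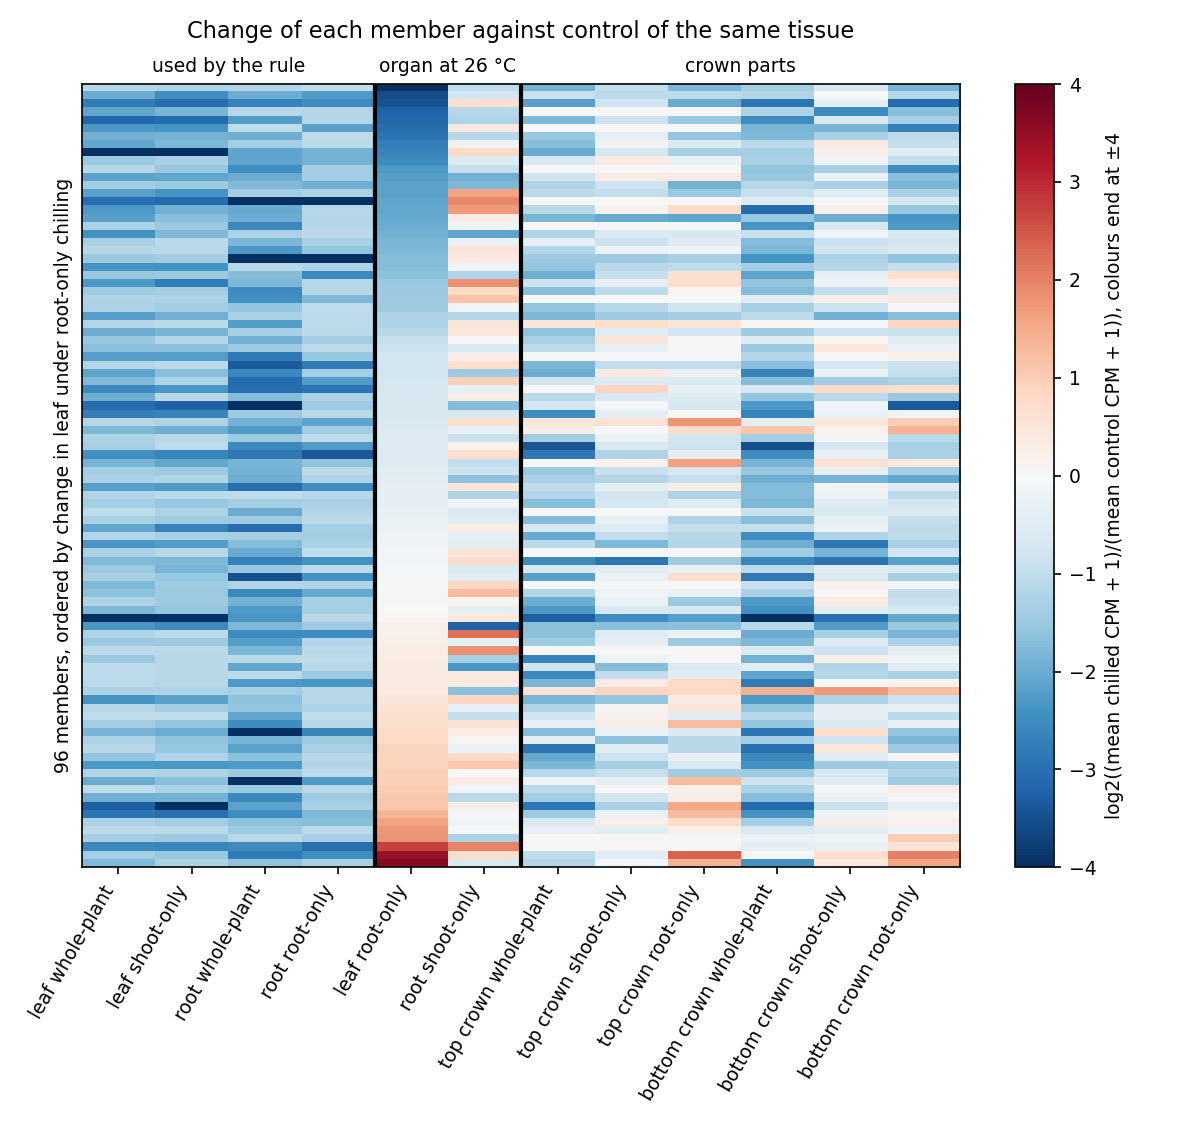
Each row is 1 of the 96 members and each column 1 comparison with control of the same tissue, coloured by the log2 ratio of (mean chilled CPM + 1) to (mean control CPM + 1), blue for lower and red for higher. The 4 columns on the left were used to choose the members and are blue by construction. The warm leaf and warm root columns range from -4.85 to 3.68 and from -3.23 to 2.20, and 13 members that the top crown table does not list appear as 0 there.

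Control levels of the members differed between tissues, and those of leaf and root entered the rule. The median CPM over the 96 was 31.8 in root, 16.3 in bottom crown, 9.62 in leaf and 7.23 in top crown. The highest control mean was in root for 51 members, in bottom crown for 20, in leaf for 13 and in top crown for 12. Of the 23167 listed genes with a control level above 0, 35.7% were highest in root, 15.3% in bottom crown, 15.2% in leaf and 33.9% in top crown. Within the crown, where the parts were fitted together, 57 of 96 members were lower in the top than in the bottom part in control plants and 9 were higher (edgeR's quasi-likelihood test, adjusted p under 0.05), with a median log2 difference of -1.29 over the 92 tested. Of all genes tested, 26.9% were lower and 24.7% higher in that comparison.

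The CPM of the 96 were summed in each library. Because the authors' constants do not bring every library to the same total, a summed CPM is not a share of the RNA. In leaf the sum was 3678 to 4713 CPM per control library and 880.4 to 1086 CPM under whole-plant chilling. In root the sum was 10633 to 12981 CPM in control and 1881 to 4719 CPM under whole-plant chilling. Of the raw counts, the 96 made up 0.366% to 0.451% in control leaves and 0.0708% to 0.0972% in leaves under whole-plant chilling, and 1.13% to 1.32% in control roots and 0.182% to 0.361% in roots under whole-plant chilling. By either measure the ranges did not overlap in either organ, which follows from the choice of members, since the rule used these same libraries. In warm leaves of root-chilled plants the measures differed. The share was 0.413% to 0.433%, within the range of control leaves, while the sum was 2941 to 3658 CPM, below every control leaf. In warm roots of shoot-chilled plants the share was 0.762% to 0.833% and the sum 7767 to 8777 CPM, both below every control root. The highest member, Zm00001d019565, carried a large part of the root sum, with 6872, 5579 and 4389 CPM in the control libraries. Its mean went from 5613 CPM in control roots to 596 CPM in warm roots of shoot-chilled plants. The mean sum over the 96 went from 11561 to 8397 CPM between these groups, a smaller fall. The lower mean sum in warm roots thus rested on this gene. Without it, the mean summed CPM of the other members was higher in warm roots than in control roots.

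**Figure D2:**
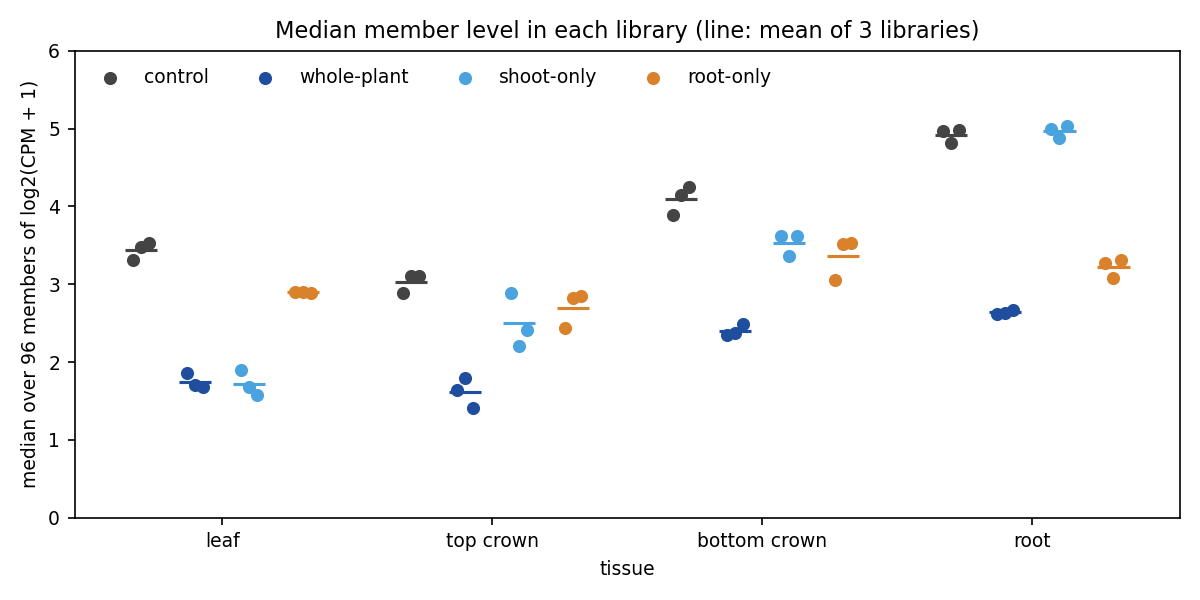
Each point is 1 library and gives the median over the 96 members of log2(CPM + 1), grouped by tissue and coloured by condition, with a line at the mean of 3 libraries. Warm leaves of root-chilled plants lie at 2.89 to 2.90, between control leaves at 3.31 to 3.53 and cold leaves at 1.58 to 1.90, while warm roots of shoot-chilled plants lie at 4.87 to 5.03 beside control roots at 4.81 to 4.98. With counts scaled by library size alone, warm leaves overlap control leaves, and warm roots, at 4.85 to 4.92, lie below control roots, at 4.98 to 5.05.

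In the organ that stayed at 26 °C the members differed in direction. In the leaf of root-chilled plants 31 of 96 were at least 2-fold lower than control, 10 were at least 2-fold higher and 55 lay between, with a median log2 ratio of -0.47. Of all listed genes, 10.4% were at least 2-fold lower and 9.25% higher there. Listed genes under 1 CPM in control cannot be 2-fold lower on this scale, and genes at 0 in control cannot lie below it. Of the 23290, 15550 had at least 1 CPM in control leaves, while every member had at least 1.81 CPM. The shares of all genes given as lower or below are thus reduced by genes that could not fall. The 3 libraries lay wholly below control for 40 members and wholly above it for 19, against 19.7% and 22.2% of all listed genes. The control libraries are those that the rule used, so these values are a description with no test. The size of the shift depended on the scaling. With counts scaled by library size alone, 28 members were at least 2-fold lower and 17 higher, where 7.02% and 16.3% of all listed genes were. The median log2 ratio was then -0.18, and the median member level in the warm leaves, 3.10 to 3.35, overlapped that in control leaves, 3.31 to 3.51.

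The lower and higher groups in the warm leaf were far apart for single genes. Zm00001d019100 had 586, 439.5 and 563 CPM in control leaves and 98.7, 128 and 202 CPM in leaves of root-chilled plants. The cold leaves held 28.1 to 155 CPM under whole-plant chilling. Its chilled libraries lay below control in all 3 treatments. Zm00001d052532 was also lower on average, but its control leaves read 19.96, 2.26 and 313 CPM, so replicate 3 alone set the control mean, and the root-only libraries at 38.0, 4.47 and 7.90 CPM overlapped the other control libraries.

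Other members went the opposite way in the warm leaf. Zm00001d028992 had 172, 170.4 and 199 CPM in control leaves, 13.6, 14.8 and 24.7 CPM in leaves under whole-plant chilling and 309.5, 307 and 527 CPM in warm leaves of root-chilled plants. The 3 groups did not overlap. Zm00001d030086 had 6.995, 10.7 and 4.95 CPM in control leaves and 76.6, 106 and 96.6 CPM in warm leaves of root-chilled plants. In cold leaves it was at 3.78 CPM or less in all 6 libraries. These members were thus lowest in cold leaves and highest in warm leaves on a cold root.

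In the root of shoot-chilled plants, which was itself at 26 °C, the median log2 ratio was -0.10. There, 19 of 96 members were at least 2-fold lower than control, 10 were at least 2-fold higher and 67 lay between. Of all listed genes, 8.37% were at least 2-fold lower and 4.93% higher. The limit given for the leaf holds here too, since 18728 listed genes had at least 1 CPM in control roots and every member at least 2.02 CPM. The 3 libraries lay wholly below control for 27 members and wholly above it for 26, against 19.7% and 18.3% of all listed genes. With counts scaled by library size alone, 23 members were at least 2-fold lower and 8 higher, where 11.0% and 3.52% of all listed genes were, and the median log2 ratio was -0.27. Of the members at least 2-fold lower, 9 were so in both warm organs, which is 9 of 31 for the leaf and 9 of 19 for the root. There was 1 member at least 2-fold higher in both warm organs, while 5 were lower in the warm leaf and higher in the warm root and 2 were the reverse. Of all listed genes, 388 were lower in both warm organs, which is 16% of the leaf list and 19.9% of the root list, 147 were higher in both, 119 were lower in the leaf and higher in the root, and 217 were the reverse.

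Zm00001d019565, the highest member, had 660.0, 545.5 and 581 CPM in warm roots of shoot-chilled plants, below every chilled root, since these read 733 CPM or more under whole-plant chilling and 1709 CPM or more under root-only chilling. All were below the control roots. In the root under whole-plant chilling, replicate 1 read 3149 CPM against 733 and 964 CPM in the other libraries, so the mean of that group rests on the library that stood apart. Zm00001d019100 was also lower in the warm root, at 31.0, 35.5 and 25.9 CPM against 213, 87.1 and 109 CPM in control.

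Zm00001d036839 was higher in the warm root, at 1751, 1194 and 1444 CPM against 691, 429.8 and 701 CPM in control, and stood at 81.5 to 175 CPM in all 6 chilled root libraries. In the warm leaf it overlapped control, at 60.5, 50.5 and 67.8 CPM against 63.0, 53.7 and 70.7 CPM in control. Zm00001d034035 had 127, 72.1 and 97.6 CPM in warm roots against 28.9, 27.8 and 38.5 CPM in control, with no overlap. Its leaf control values were 47.1, 35.9 and 297 CPM, so its fall in the leaf rests in large part on replicate 3.

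**Figure D3:**
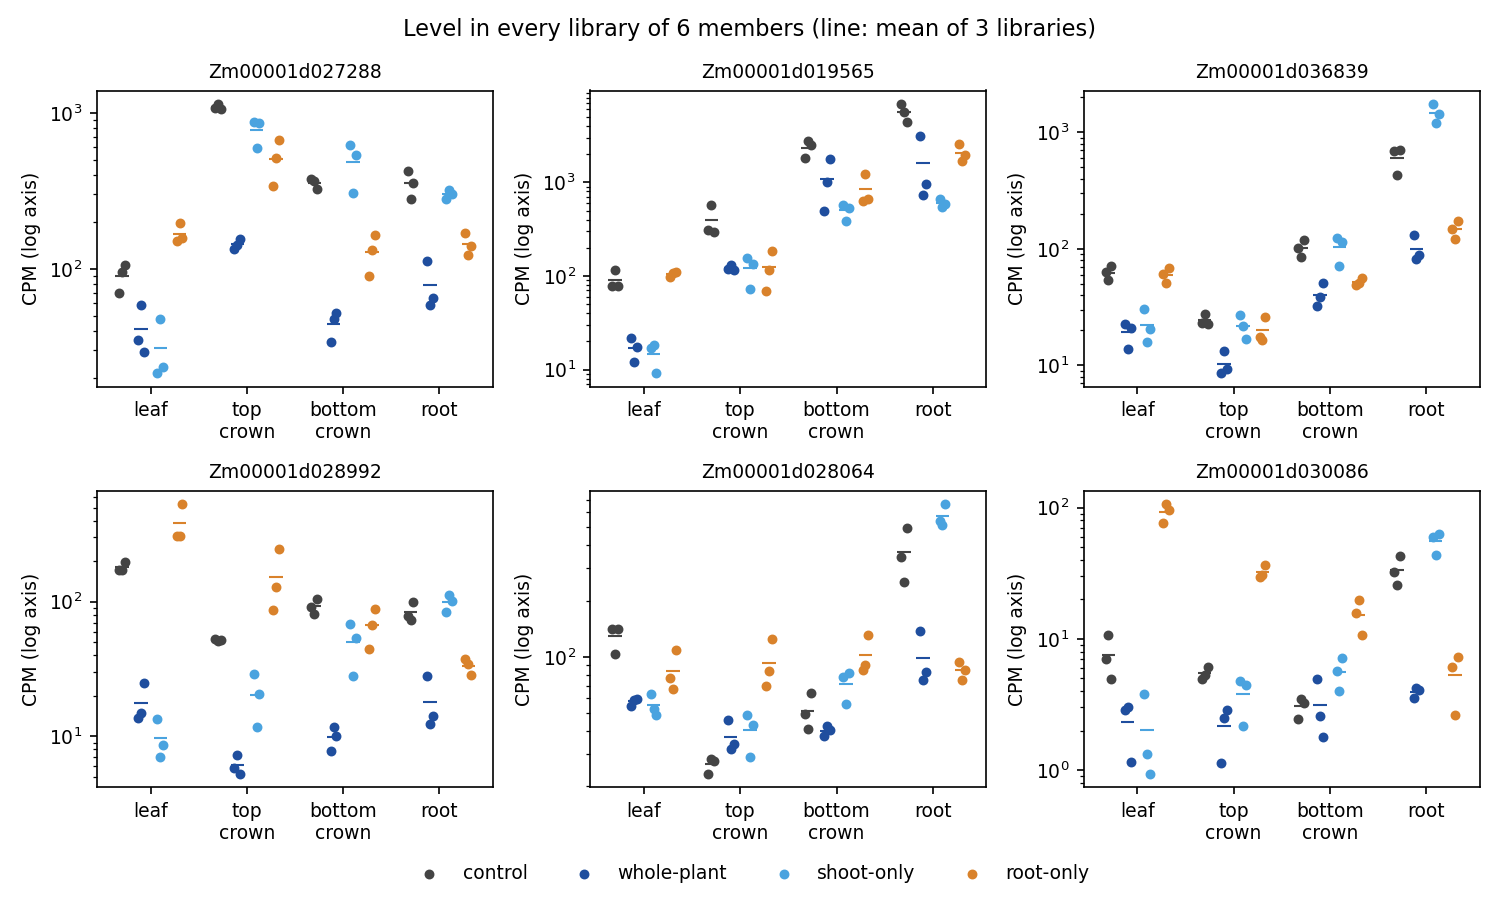
Each point is the deposited CPM of 1 library on a log axis, by tissue and condition, for 6 members, with a line at the mean of 3 libraries. Zm00001d028992 and Zm00001d030086 have their highest leaf and top crown values under root-only chilling, Zm00001d036839 its highest root values under shoot-only chilling, and Zm00001d019565 its lowest root values in the warm roots of shoot-chilled plants.

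The crown libraries were not used to choose the members, and there the group fell when the whole plant was chilled. In the top crown 64 of 96 members were lower than control and 0 were higher (edgeR's quasi-likelihood test on counts, Benjamini-Hochberg adjusted p under 0.05 over all genes), where 19.5% of all genes tested were lower and 16.8% higher. For the bottom crown the counts were 80 lower and 1 higher of 96, where 17.4% of all genes tested were lower and 17.6% higher. The low-count filter left out 22 members in the top crown and 4 in the bottom crown. With no filter the counts lower than control were 69 and 79, and 1 member was higher in each part. The median log2 fold change was -1.98 over the 74 tested in the top crown and -1.86 over the 92 tested in the bottom crown, against -0.06 and 0.00 over all genes tested.

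In all, 85 of 96 members were called lower under whole-plant chilling in at least 1 crown part. Of the 74 members tested in both parts, 59 were called lower in both. The matching shares of all genes were not computed, so these counts have no background beside them. Levels of the group moved from 3609.8 to 4569 CPM per control library to 1198 to 1269.9 CPM in the top crown. Bottom crown libraries moved from 5788 to 6975 CPM to 1655 to 3299.9 CPM, and without replicate 1 of the whole-plant group, which stood apart, 77 members were called lower in place of 80. For comparison, of the 599 genes lowered at least 2-fold in both cold-leaf comparisons and in neither chilled-root comparison, 36.4% were called lower in the top crown under whole-plant chilling and 42.9% in the bottom crown. Of the 490 genes lowered in both chilled-root comparisons and in neither cold-leaf comparison the shares were 23.9% and 33.7%, and of the 96 members 66.7% and 83.3%. These lists differ in how many of their genes passed the low-count filter, and the differences between them were not tested.

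Zm00001d027288 was the second highest member in control. Where it was highest, in the top crown, it had 1078, 1139 and 1054 CPM in control and 134, 142 and 154 CPM under whole-plant chilling, a log2 fold change of -2.96 (SE 0.20, adjusted p 1.33e-08). Bottom crown libraries of this gene held 377, 364 and 323 CPM in control and 33.7, 47.5 and 51.9 CPM under whole-plant chilling, a log2 fold change of -3.01 (SE 0.27, adjusted p 3.94e-06). The groups were far apart in both parts.

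Zm00001d019565 had 309.6, 579 and 292 CPM in top crown control and 119.6, 132 and 115 CPM under whole-plant chilling, a log2 fold change of -1.73 (SE 0.38, adjusted p 0.00494). Its bottom crown values were 1823, 2755 and 2487 CPM in control and 492, 1018 and 1782 CPM under whole-plant chilling, and its log2 fold change of -1.11 (SE 0.42, adjusted p 0.066) did not pass the test. There the highest chilled library came close to the lowest control library. Zm00001d019100 fell in the bottom crown from 332, 328 and 349 CPM to 105, 182 and 259 CPM, a log2 fold change of -0.89 (SE 0.29, adjusted p 0.0323). That call was lost in 6 of 12 alternatives, with adjusted p between 0.00366 and 0.0921 over them.

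When only the shoot or only the root was chilled, fewer members fell in the crown and some rose. In the top crown 33 of 96 were lower and 2 higher under shoot-only chilling, where 12.5% of all genes tested were lower and 11.4% higher, with a median log2 fold change of -0.68. Under root-only chilling 30 were lower and 10 higher there, where 18.1% and 17.8% of all genes tested were, with a median of -0.62.

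In the bottom crown 33 members were lower and 1 higher under shoot-only chilling, where 11.8% of all genes tested were lower and 14.4% higher, with a median log2 fold change of -0.43. Without replicate 2 of the shoot-only group, which stood apart, 27 were lower and 6 higher. Under root-only chilling 52 were lower and 6 higher, where 18.0% and 21.4% of all genes tested were, with a median of -1.05. With no low-count filter the 4 counts of members lower than control were 37 and 36 in the top crown and 33 and 50 in the bottom crown, shoot-only before root-only.

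**Figure D4:**
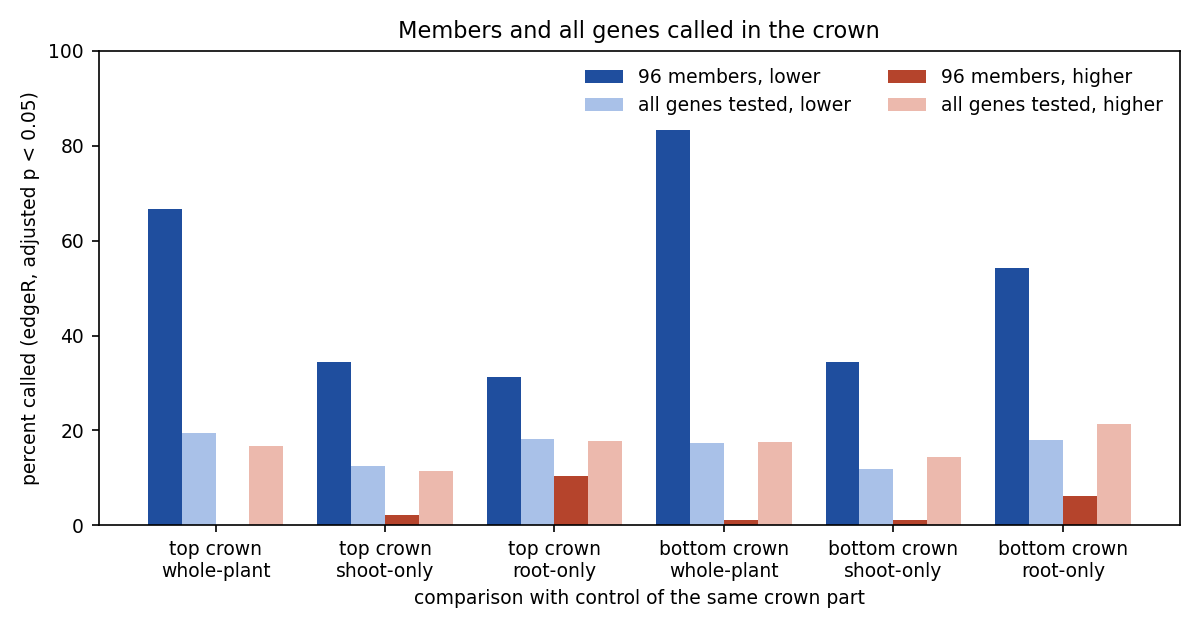
Bars give the percent of the 96 members and of all genes tested that edgeR called lower or higher than control (adjusted p under 0.05) in each crown part and treatment. Members called lower reach 66.7% and 83.3% under whole-plant chilling, while members called higher stay at or below 10.4%, under the share of all genes called higher in each of the 6 comparisons. Member bars are over all 96, including 22 not tested in the top crown and 4 in the bottom crown. Under whole-plant chilling 64 of 74 members tested were lower in the top crown and 80 of 92 in the bottom crown. The bars of the crown parts are thus not on the same footing.

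Single members show how the local treatments split the group. Zm00001d027288 had 867.5, 593 and 855 CPM in the top crown under shoot-only chilling, a log2 fold change of -0.53 (SE 0.19, adjusted p 0.049), and this call was lost in 8 of 12 alternatives. Under root-only chilling it had 342, 514 and 665 CPM there, a log2 fold change of -1.12 (SE 0.19, adjusted p 0.0002). It fell in the bottom crown under root-only chilling to 90.2, 131 and 165 CPM (log2 fold change -1.44, with SE 0.26 and adjusted p 0.000663).

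Zm00001d019565 fell under each local treatment as well. Its top crown libraries held 156, 73.2 and 135 CPM under shoot-only chilling (log2 fold change -1.73, with SE 0.38 and adjusted p 0.00805) and 69.3, 117 and 184.5 CPM under root-only chilling (log2 fold change -1.69, with SE 0.38 and adjusted p 0.0052). Its bottom crown libraries held 576, 391 and 534 CPM under shoot-only chilling (log2 fold change -2.20, with SE 0.44 and adjusted p 0.00485) and 637, 1227 and 659 CPM under root-only chilling (log2 fold change -1.46, with SE 0.42 and adjusted p 0.0203). The last call was lost without control replicate 2, without root-only replicate 1 and without root-only replicate 3, with adjusted p of 0.0604, 0.0713 and 0.0712. Its level was below control in both crown parts under all 3 treatments, and the fall missed the threshold only in the bottom crown under whole-plant chilling.

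Zm00001d027454 fell in the bottom crown under shoot-only chilling from 206, 225 and 245.5 CPM to 121, 85.6 and 137 CPM, a log2 fold change of -0.95 (SE 0.20, adjusted p 0.00271). Its control and chilled libraries did not overlap.

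Root-only chilling raised 10 members in the top and 6 in the bottom crown, a smaller share than the 17.8% and 21.4% of all genes tested that rose there. Zm00001d028064 rose in the top crown from 23.4, 27.99 and 27.6 CPM to 69.3, 84.3 and 125 CPM, a log2 fold change of 1.80 (SE 0.22, adjusted p 7.03e-06). It rose in the bottom crown from 49.1, 40.7 and 63.5 CPM to 85.0, 90.6 and 131 CPM (1.02, SE 0.19, adjusted p 0.000561). In the root the same member had 347, 253 and 498 CPM in control and 93.7, 75 and 85.0 CPM under root-only chilling, so under 1 treatment it was lower in the cold root and higher in both crown parts.

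Zm00001d028992 had 52.9, 50.6 and 52.2 CPM in top crown control and 86.3, 129 and 245 CPM under root-only chilling, a log2 fold change of 1.55 (SE 0.34, adjusted p 0.00385). Under whole-plant chilling it stood at 5.85, 7.27 and 5.29 CPM in the same tissue. Zm00001d030086 rose in the bottom crown from 2.44, 3.5 and 3.22 CPM to 15.7, 19.7 and 10.6 CPM under root-only chilling, a log2 fold change of 2.34 (SE 0.35, adjusted p 7.38e-05). In the chilled root it was at 7.30 CPM or less in all 6 libraries, against 25.9 CPM or more in control.

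The change in the warm leaf and in the crown under root-only chilling can be set side by side, since leaf and crown were separate libraries. Of the 10 members at least 2-fold higher in the warm leaf, 5 were called higher in the top crown, 0 were called lower and 2 were not tested. Of all 2154 listed genes that were so in the warm leaf, 26.9% were called higher and 12.2% lower in the top crown, and 30.1% and 12.4% in the bottom crown. Of these 10, in the bottom crown, 3 were called higher, 0 lower, and 1 was not tested. Of the 31 members at least 2-fold lower in the warm leaf, 13 were called lower in the top crown and 0 higher, with 8 not tested, and in the bottom crown 20 were called lower and 1 higher, with 2 not tested. Of all 2430 listed genes at least 2-fold lower in the warm leaf, 19.9% were called lower and 12.3% higher in the top crown, and 23.0% and 14.6% in the bottom crown. The 55 members in between were called lower in 17 cases and higher in 5 in the top crown, and in 32 and 2 cases in the bottom crown. Of all genes in between, 13.1% were called lower and 12% higher in the top crown, and 13.6% and 15.8% in the bottom crown. The labels leave unsaid whether leaf and crown were cut from the same plants.

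**Figure D5:**
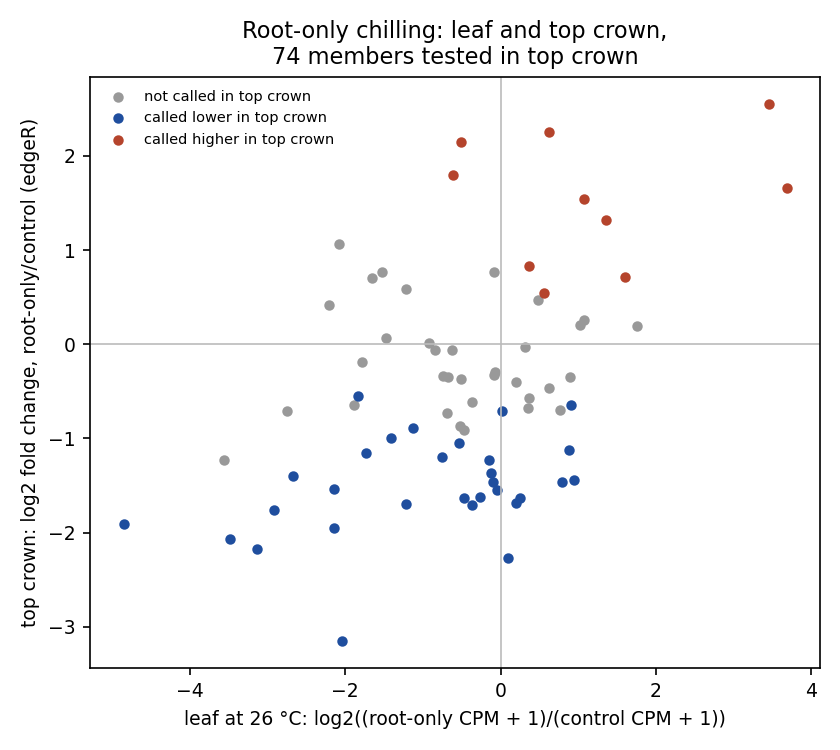
Each point is 1 of the 74 members tested in the top crown, with the log2 ratio of root-only to control CPM (each plus 1) in the leaf at 26 °C on the horizontal axis and the edgeR log2 fold change in the top crown on the vertical axis. The members called higher in the top crown include 5 of those at least 2-fold higher in the leaf, and the 13 called lower among those at least 2-fold lower in the leaf lie in the lower left.

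The reverse arrangement was a warm root under a cold shoot. Of the 10 members at least 2-fold higher in the warm root, 2 were called lower under shoot-only chilling in the top crown and 3 in the bottom crown, 0 were called higher in either, and 4 were not tested in each part. Of the 19 at least 2-fold lower in the warm root, 8 were called lower in each crown part and 0 higher, with 4 not tested in the top crown. Of all listed genes at least 2-fold higher in the warm root, 9.76% were called lower and 8.89% higher in the top crown, and 9.32% and 12.9% in the bottom crown. Of those at least 2-fold lower there, 17.1% were called lower and 6.46% higher in the top crown, and 14.9% and 12.4% in the bottom crown.

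Whole-plant chilling and shoot-only chilling differ in the temperature of the root, and set directly against each other they separated many members. In the top crown 40 of 96 were lower under whole-plant than under shoot-only chilling and 2 were higher, where 13.3% and 12.5% of all genes tested were. In the bottom crown 63 were lower and 3 higher, where 20.5% and 19.1% were. The median log2 differences were -1.18 and -1.41. Zm00001d027288 was lower by this comparison in the top crown (log2 difference -2.43, SE 0.20, adjusted p 2.69e-07) and in the bottom crown (-3.50, SE 0.28, adjusted p 2.13e-06), where shoot-only libraries held 619.5, 305 and 535 CPM. Zm00001d036839 had 8.54, 13.2 and 9.25 CPM in the top crown under whole-plant chilling and 26.9, 21.8 and 16.8 CPM under shoot-only chilling, a log2 difference of -1.08 (SE 0.23, adjusted p 0.00223).

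Shoot-only and root-only chilling were compared directly as well. In the top crown 18 of 96 members were lower under shoot-only than under root-only chilling and 12 were higher, where 12.3% and 10.9% of all genes tested were. The 12 higher are 12.5% of the 96, but 22 of these were not tested there. That share is therefore not on the same footing as 10.9%. The balance was the reverse in the bottom crown, with 11 lower and 24 higher under shoot-only chilling, where 18.2% and 15.9% were. Among these, Zm00001d036839 had 124, 70.7 and 114 CPM in the bottom crown under shoot-only chilling and 48.9, 50.4 and 56.6 CPM under root-only chilling, a log2 difference of 0.99 (SE 0.20, adjusted p 0.00148). Zm00001d027288 was also higher there under shoot-only chilling (1.93, SE 0.26, adjusted p 0.00011). With 1 library left out, members higher under shoot-only chilling ran from 7 to 10 in the top crown and from 16 to 25 in the bottom crown. Members called in either direction then ran from 22 to 26 and from 26 to 35. Whether the balance differed between the crown parts was not tested.

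Zm00001d028770 had, in the top crown, 16.6, 13.2 and 17.7 CPM under shoot-only chilling and 7.37, 7.36 and 11.1 CPM under root-only chilling, a log2 difference of 0.85 (SE 0.21, adjusted p 0.00499). Zm00001d000126 went the other way there, with 64.5, 28.9 and 60.7 CPM under shoot-only and 75.9, 87.4 and 117 CPM under root-only chilling, a log2 difference of -0.88 (SE 0.25, adjusted p 0.0165). Without root-only replicate 3 its adjusted p was 0.0708. Control libraries of this gene held 103 to 149 CPM in the top crown and whole-plant libraries 14.8 to 16.3 CPM.

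Within 1 crown part, whole-plant chilling gave the lowest fitted value of the 3 treatments for 58 of the 74 members tested in the top crown and for 69 of the 92 tested in the bottom crown. Root-only chilling gave the lowest for 9 and 14 members and shoot-only chilling for 7 and 9. Of all genes tested, whole-plant chilling gave the lowest value for 34.7% in the top and 32.2% in the bottom crown. In the top crown 21 members were called lower under all 3 treatments and 20 under whole-plant chilling with no call under either local treatment. A further 8 were lower under whole-plant chilling and higher under a local one. The same counts were, in the bottom crown, 25, 23 and 1, and another 25 were called lower under whole-plant and root-only chilling but not under shoot-only chilling, against 7 in the top crown. Of all genes tested in the top crown, 4.83% were lower under all 3 treatments, 7.59% under whole-plant chilling with no local call, 0.983% under whole-plant chilling and higher under a local one, and 4.5% under whole-plant and root-only chilling without a shoot-only call. For the bottom crown these shares were 3.41%, 6.11%, 1.79% and 5.16%. A call in one treatment and none in another is not a test of the difference.

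Of the 74 members tested in both crown parts, 12 were called lower in all 6 comparisons with control, 12 in 5, 13 in 4, 14 in 3, 15 in 2, 5 in 1 and 3 in 0. The 6 comparisons share control libraries within a part. Of all 16954 genes tested in both parts, 1.79% were lower in all 6, 2.25% in 5, 4.75% in 4, 6.33% in 3, 10.8% in 2, 15.5% in 1 and 58.5% in 0. Of the 74, 13 were called higher in at least 1 of the 6, which is 17.6% against 41.4% of all genes tested in both parts. All 74 were called in 1 direction or the other at least once, as were 75.9% of those genes.

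Whether the crown parts differed in their response was tested with the interaction of crown part and treatment over all 24 crown libraries. For whole-plant chilling 0 of 96 members had a more negative change in the top crown and 2 a less negative one, where 0.464% and 0.311% of all genes tested were called. For shoot-only chilling 0 members were called in either direction with edgeR, against 0.0766% and 0.0204% of all genes, and 9 had an unadjusted p under 0.05. For root-only chilling 5 were called, all less negative or more positive in the top crown, where 1.87% of all genes were called in the negative and 1.12% in the positive direction. Of the 92 members tested, 11 had an unadjusted p under 0.05 in edgeR's test for whole-plant and 24 for root-only chilling, those called included. The matching unadjusted shares of all genes were not computed. For the remaining members no difference between the crown parts passed the adjusted threshold with 3 libraries a group, which does not show that the parts responded alike.

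The 5 members called for root-only chilling differed between the parts by 2.04 to 4.32 on the log2 scale, with adjusted p from 0.00186 to 0.0447 in edgeR's test. Zm00001d028992 had the smallest difference of the 5. Its bottom crown libraries held 91.1, 81.2 and 105 CPM in control and 44.7, 67.1 and 88.1 CPM under root-only chilling, beside the rise in the top crown. The difference of the log2 fold changes was 2.04 (SE 0.49, adjusted p 0.0272). Zm00001d010969 had 0.478, 0.172 and 0.845 CPM in top crown control and 2.40, 3.09 and 2.04 CPM under root-only chilling, while the bottom crown had 4.07, 3.94 and 4.68 CPM in control and 1.25, 3.97 and 4.63 CPM, a difference of 2.62 (SE 0.72, adjusted p 0.0447). Those calls were lost in 9 and 10 of 15 alternatives, most of which left out 1 library.

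For whole-plant chilling the members were Zm00001d021773 and Zm00001d022628. The first had 2.44, 3.94 and 4.39 CPM in bottom crown control and 0.116, 0.173 and 0.531 CPM under whole-plant chilling, against 2.55, 1.03 and 1.01 CPM and 1.12, 2.49 and 0.881 CPM in the top crown, a difference of 3.70 (SE 0.83, adjusted p 0.0248). The second had 119, 101 and 125 CPM in bottom crown control and 27.6, 30.3 and 43.7 CPM under whole-plant chilling, while the top crown held 27.9, 29.2 and 21.6 CPM in control and 20.7, 19.7 and 18.9 CPM under whole-plant chilling, a difference of 1.34 (SE 0.30, adjusted p 0.0277). The calls were lost in 7 and 9 of 15 alternatives, and without bottom crown whole-plant replicate 1 neither was made.

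In control plants 4 abundant members, present in both crown parts, differed in level between them. Zm00001d019565 was lower in the top than in the bottom crown (log2 difference -2.65, SE 0.45, adjusted p 8.32e-05), and so was Zm00001d019100, with 97.8, 139 and 106 CPM against 332, 328 and 349 CPM (-1.63, SE 0.31, adjusted p 0.000165). Zm00001d027288 was higher in the top crown (1.54, SE 0.24, adjusted p 1.24e-05). Zm00001d013066 was as well, with 707, 641.5 and 437 CPM in the top and 154, 119 and 122 CPM in the bottom crown (2.10, SE 0.37, adjusted p 0.000106).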

How the data were processed

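Per the labels' protocols, Trizol was used for RNA and a NextSeq for sequencing libraries of 3′ ends. Raw counts for each gene and library were deposited by the authors, with 1 table per tissue of values they call CPM. In those tables each column is a signal that the authors made before deposit by multiplying the raw counts by 1 constant per library. Per the submitters' processing notes the tools were STAR and edgeR, with no version. The sources used here give no build, counter, strand setting or molecular identifiers, so genes with overlapping, antisense or near-identical partners are uncertain. The members and lists were chosen with earlier results of these data known.

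The deposited CPM tables gave the members and all levels. The raw counts, over 46430 identifiers, gave all tests: edgeR 4.0.16 in R 4.3.3, filterByExpr over conditions, TMM factors, robust quasi-likelihood fits per crown part over its 12 libraries, and 1 fit of all 24 crown libraries for crown part, treatment and their interaction. P-values were adjusted by Benjamini-Hochberg over all genes tested, with a threshold of 0.05. Standard errors follow from the quasi-likelihood F value. The fit was tested on simulated data. Precision is limited by totals of 3449880 to 8633854 counts and by 3 replicates a group.

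Alternatives were DESeq2 1.42.0, its size factors, library size alone, no low-count filter, separate fits of the 6 libraries compared, the replicate block, each library left out, and other rules for the members.

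Genes to be named were the 12 highest members in control, those with the largest falls or rises in the crown, those called for an interaction, those nearest the threshold, and those most changed in the warm organs. Of these at most 2 risen and 2 fallen were taken per comparison, so a gene taken for one comparison can also appear with values from another. Planned gene lists, marker checks and promoter motifs were not used, because identifiers had no names and no sequence was at hand.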

Additional observations from a re-analysis of the deposited data

Results flagged for a closer look

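The change under root-only chilling differed between the crown parts for 5 members, by the interaction term of edgeR's fit over 24 crown libraries, each with the more positive value in the top crown. Of all genes tested, 1.12% were called in that direction and 1.87% in the other. Zm00001d028992 differed by 2.04 on the log2 scale and Zm00001d010969 by 2.62, and these calls were lost in 9 and 10 of 15 alternatives. The change under whole-plant chilling differed for 2 members, which were Zm00001d021773 by 3.70 and Zm00001d022628 by 1.34, again with the more positive value in the top crown. These calls were lost in 7 and 9 of 15 alternatives, and 0.311% of all genes tested were called in that direction and 0.464% in the other. Zm00001d010969 and Zm00001d021773 lay below 5 CPM in every crown library of the groups compared.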

How the results depend on the processing

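Apart from leaving out a library, 71 of 72 recomputed counts of members, of members lower than control and of members called in either direction stayed within 1.5 times the reported value. The exception was the number of members, which was 14 at a log2 limit of -1.5 in place of 96 at -1. A pseudocount of 0.5 gave 141 members, including all 96, library size alone 112, with 83 shared, and edgeR calls in all 4 comparisons 79, with 66 shared. Leaving out 1 library moved the number of members between 85 and 109.

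Over libraries left out in turn, the members called lower in the top crown ran from 59 to 66 under whole-plant, 25 to 34 under shoot-only and 23 to 33 under root-only chilling, and in the bottom crown from 77 to 80, 24 to 31 and 44 to 53. Members called for the interaction of crown part and treatment ran from 0 to 2 for whole-plant and from 2 to 8 for root-only chilling, and the cause was not tested. Counts of members higher than control were small and moved more. They ran over the other alternatives from 1 to 4 in the top and from 0 to 2 in the bottom crown under shoot-only chilling, and reached 6 in the latter without shoot-only replicate 2. For whole-plant chilling they ran from 0 to 1 and from 1 to 2.

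Scaling by library size alone shifted the median of all genes by -0.245 in the top and -0.232 in the bottom crown under whole-plant chilling, by -0.110 and -0.161 under shoot-only, and by -0.087 and -0.269 under root-only chilling. It moved the lower share of all calls from 53.7% to 78.1% and from 49.7% to 73.4% under whole-plant chilling, from 52.2% to 67.2% and from 45.1% to 65.1% under shoot-only chilling, and from 50.5% to 59.3% and from 45.7% to 69.1% under root-only chilling. Members called lower then numbered 68 and 86 under whole-plant chilling, with medians of -2.22 and -2.09, which stayed below those shifts.

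With a replicate block, members called lower numbered 63, 33 and 30 in the top crown and 82, 34 and 57 in the bottom crown under whole-plant, shoot-only and root-only chilling, and the interaction of root-only chilling gave 7 members. Whether the numbers pair samples is not stated. Correlations of same-numbered deviations ran from -0.301 to 0.238 in the top and from -0.169 to 0.188 in the bottom crown, with 8 and 9 of 18 over 0.1. All 3 were over 0.1 in 0 of the 10 pairs of groups compared and in 1 pair not compared, bottom crown whole-plant and root-only. They were in 3 of 6 pairs of root groups, where edgeR calls, made without a block, served only as another rule for the members. As a hint from the data, 8 of 12 top and 9 of 12 bottom crown samples correlated best with their own number. With library size alone, added after seeing the data, 28 members were at least 2-fold lower in the warm leaf and 23 in the warm root, and 17 in place of 10 were at least 2-fold higher in the warm leaf. Members chosen without root whole-plant replicate 1, also added after seeing the data, gave 64 and 80 called lower under whole-plant chilling in the top and bottom crown. Of 36 calls of single genes, 25 held under each alternative tried and 11 were lost under at least 1, while 0 reversed.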
